A study of Homo sapiens with 6 samples.

Results

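The genes described here are 39 rows of the gene table of a CLGN knockdown experiment in Hep-G2 cells, a human hepatocellular carcinoma line. They were taken by gene name and fall into 2 sets, 22 genes of the ATF4 pathway and 17 cytosolic tRNA synthetases, out of 58735 genes in the table. RNA was sequenced from 3 libraries of the control group sh-NC and 3 libraries of the knockdown group sh-CLGN, all from the same line, and CLGN codes for calmegin, which helps proteins fold in the endoplasmic reticulum. Both groups carried a lentiviral short hairpin and had been selected with puromycin, with 1 hairpin sequence per group, so that a hairpin and its target cannot be told apart. The labels name the control genotype WT, while the study's methods describe a control hairpin, sh-NC. All 6 libraries are listed with the same batch day, and which steps they shared is not stated. The labels do not say whether the 3 libraries of a group came from separate cultures. The p-values therefore measure the spread between these libraries only.

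ATF4 is a transcription factor of the basic leucine zipper (bZIP) class whose messenger RNA is translated better when the initiation factor eIF2 is phosphorylated, as it is under stress in the endoplasmic reticulum or when amino acids run short. ATF4 pairs with C/EBP proteins on composite promoter sites and raises genes for amino acid synthesis, amino acid uptake and tRNA charging, together with genes that later restrain the response, among them a phosphatase subunit for eIF2 and inhibitors of mTORC1. tRNA synthetases join each amino acid to its tRNA, and many of the cytosolic enzymes are known ATF4 targets. Because ATF4 is controlled at translation, the level of its messenger RNA does not give the amount of the protein.

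Values are FPKM, reads scaled by gene length and library size, so levels can be set beside each other between genes, with a limit. The length used for each member was that of all its annotated exonic bases, so such comparisons also depend on the annotation. The libraries held 14955816 to 16244639 reads. CLGN stood at 24.1, 21.0 and 26.1 FPKM in sh-NC and at 9.48, 8.88 and 8.60 FPKM in sh-CLGN, 37.8% of control. The groups stood apart as wholes, with correlations between libraries of 0.988 to 0.992 within groups and 0.937 to 0.945 between groups. All 8 hepatocyte and Hep-G2 markers were above 1 FPKM in every library, with a summed level of 6785 to 7014 FPKM in sh-NC and 6729 to 7146 FPKM in sh-CLGN. Single markers of this list moved in both directions, with 5 called lower and 2 higher, among them ALB at 53.6% and TF at 32.2% of control and AFP at 142% and TTR at 150% of control. Of the other cell types, the 5 fibroblast markers summed to 6.36 to 7.91 FPKM in sh-NC and 45.8 to 47.5 FPKM in sh-CLGN, with COL1A2 at a mean of 4.20 and 38.7 FPKM and ACTA2 under 1 FPKM in all libraries. Of these, COL1A2 and PDGFRB were called higher, as were COL1A1 and COL3A1, which passed the filter only through sh-CLGN. The 3 cholangiocyte markers summed to 59.2 to 62.3 and 71.6 to 76.5 FPKM, the 3 leukocyte markers to 68.7 to 76.2 and 60.7 to 67.9 FPKM, and the 3 endothelial markers to 3.33 to 3.67 and 2.38 to 2.65 FPKM. Within these lists KRT7, PTPRC, CD68 and VWF had at most 4 reads in any library, and CDH5 had 21 to 30 reads in sh-NC and 4 to 10 reads in sh-CLGN. The others were expressed in every library, with KRT19 called higher and EPCAM, LYZ and PECAM1 called lower. In bulk RNA a change in the number of cells of a type and a change in RNA per cell cannot be told apart, and the part of these markers in the results below was not tested.

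Most of the members were lower after CLGN knockdown. Mitochondrially encoded genes took 3.25% to 4.02% of sh-NC reads and 5.49% to 5.80% of sh-CLGN reads, without overlap, and the part of this in the members' changes was not tested. A gene was called when the adjusted p of limma on log2(FPKM + 1) was at most 0.05, and a log2 fold change is sh-CLGN minus sh-NC on that scale. Of the 39 members 31 were lower, 5 were higher and 3 were not called, beside 39% of all 13074 tested genes called lower and 26.7% called higher (65.8% either way). In the ATF4 set 19 of 22 were lower and 2 higher, and the median log2 fold change was -0.67. In the synthetase set 12 of 17 were lower and 3 higher, with a median of -0.37. The median of all tested genes was -0.08. The same 31 and 5 members had no overlap between the libraries of the groups, beside 41.5% of tested genes with all sh-CLGN libraries below all sh-NC libraries and 28.7% with all above.

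The summed level of the ATF4 set was 1823, 1809 and 1731 FPKM in sh-NC and 1044, 1032 and 1019 FPKM in sh-CLGN, a fall to 57.7% of control. The synthetases summed to 1050, 1060 and 1042 FPKM in sh-NC and to 744, 733 and 753 FPKM in sh-CLGN, 70.8% of control. Neither sum overlapped between the groups, and neither was tested.

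The size of these shifts depended on scaling. The deposited values divide by library sizes that were 0.933 to 0.953 of the reads in sh-NC and 1.07 to 1.08 of the reads in sh-CLGN. Scaling by read totals moved the median of all tested genes up by 0.16 and rescaling to TPM moved it up by 0.11, both on the log2 scale. All tested genes then divided into 26.2% lower and 37.9% higher with read totals, and into 30.0% lower and 32.8% higher with TPM, while the members divided into 27 lower and 6 higher and into 28 lower and 6 higher. Relative to the median of all tested genes, the ATF4 set lay at -0.59 as deposited, at -0.59 with TPM, at -0.56 with read totals and at -0.38 with quantile normalization. The synthetase set lay at -0.30 as deposited, at -0.28 with TPM, at -0.27 with read totals and at -0.06 with quantile normalization. Under quantile normalization 7 synthetases were lower and 5 higher, beside 32.5% of all tested genes lower and 30.2% higher. The number of lower genes was 17 to 19 in the ATF4 set and 7 to 12 in the synthetase set over the 16 alternatives. With quantile normalization DDIT3, MTHFD2 and ALDH18A1 lost their calls in the ATF4 set, and ASNS gained one.

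**Figure D1:**
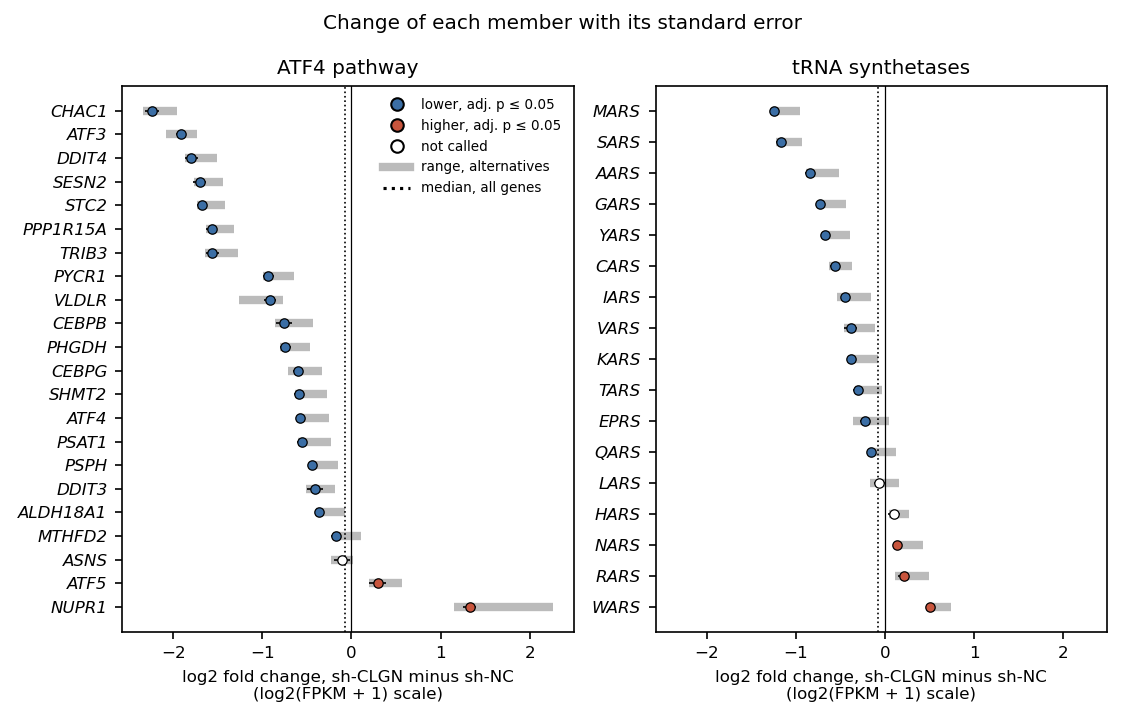
Log2 fold change of each member (x axis, sh-CLGN minus sh-NC on the log2(FPKM + 1) scale) with its standard error as a bar, ATF4 pathway at left and tRNA synthetases at right. Blue points were called lower, red points higher and white points were not called, grey bars span the alternatives, and the dotted line is the median of all tested genes at -0.08. CHAC1 lies lowest at -2.24 and NUPR1 highest at 1.33.

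The bZIP factors were lower with the exception of ATF5. ATF4 itself (chr22:39519695-39522685, plus strand, GRCh38) was at 262, 248 and 240 FPKM in sh-NC and at 171, 165 and 167 FPKM in sh-CLGN. All sh-CLGN libraries lay below all sh-NC libraries, at 67.0% of control (log2 fold change -0.57 ± 0.05 SE, limma adjusted p = 3.98e-05). ATF3 (chr1:212565334-212620777, plus strand), a stress-induced bZIP factor and itself an ATF4 target, showed the widest gap of the 6 factors. Its level was 25.3, 24.2 and 24.4 FPKM in sh-NC against 5.95, 5.93 and 5.55 FPKM in sh-CLGN, 4.24-fold lower (log2 fold change -1.91 ± 0.05 SE, limma adjusted p = 4.15e-07). Counted from the largest fall, ATF3 ranked 17 of the 13074 genes tested.

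CEBPB and CEBPG encode C/EBP proteins that form dimers with ATF4. CEBPB had 84.2, 89.1 and 69.0 FPKM in sh-NC and 48.5, 45.3 and 48.0 FPKM in sh-CLGN. CEBPG had 59.1, 55.9 and 60.1 FPKM in sh-NC and 37.4, 39.7 and 37.1 FPKM in sh-CLGN. Both fell without overlap, to 58.5% and 65.3% of control. DDIT3, which encodes the pro-apoptotic factor CHOP, had 22.4, 21.4 and 17.8 FPKM in sh-NC and 14.1, 15.4 and 16.1 FPKM in sh-CLGN. Its fall was smaller than that of ATF3 (log2 fold change -0.41 ± 0.09 SE, limma adjusted p = 0.0044), and its call was lost with quantile normalization (log2 fold change -0.18, limma adjusted p = 0.0821). DDIT3 shares 39.6% of its exonic bases with other genes, and 27.2% with MARS, since DDIT3 (chr12:57516588-57521737, minus strand) and MARS (chr12:57475445-57517569, plus strand) run toward each other and overlap at their ends. Whether reads were counted by strand is not given in the sources used here, so reads of DDIT3 and of such partners cannot be told apart there.

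ATF5, a bZIP factor that is under the same kind of translational control as ATF4, went the other way. It had 6.92, 6.03 and 5.16 FPKM in sh-NC and 7.10, 7.60 and 8.05 FPKM in sh-CLGN. The groups did not overlap, but the nearest libraries were close, and the rise was modest (log2 fold change 0.29 ± 0.10 SE, limma adjusted p = 0.0263). The call was lost without sh-NC replicate 2, sh-NC replicate 3, sh-CLGN replicate 2 or sh-CLGN replicate 3, where the limma adjusted p was 0.0576, 0.0533, 0.0652 and 0.0831. ATF5 shares 21.2% of its exonic bases with NUP62 on the opposite strand.

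The genes that restrain the response or act on mTORC1 and glutathione, with NUPR1 counted among them, had the lowest median of the role groups. It was -1.64 on the log2 scale, and ATF3 and STC2 of other groups fell by similar amounts. Of the 6 genes of this group 5 were lower, and the same 5 fell at least 2-fold on the log2(FPKM + 1) scale. A fall of this size with a call was reached by 3.19% of all tested genes. CHAC1 (chr15:40952962-40956519, plus strand), an enzyme that breaks down glutathione, had 57.5, 53.5 and 46.3 FPKM in sh-NC and 10.1, 10.6 and 10.1 FPKM in sh-CLGN. It was 5.10-fold lower (log2 fold change -2.24 ± 0.08 SE, limma adjusted p = 1.2e-06) and ranked 10 of all genes tested from the largest fall. DDIT4, also called REDD1, restrains mTORC1 and had 106, 104 and 89.3 FPKM in sh-NC and 29.8, 26.6 and 27.5 FPKM in sh-CLGN. It was 3.56-fold lower and ranked 23, with the limit that 41.2% of its exonic bases are shared with an antisense gene, DDIT4-AS1.

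SESN2, a leucine sensor that holds mTORC1 in check, had 65.1, 70.2 and 60.7 FPKM in sh-NC and 18.1, 19.0 and 21.1 FPKM in sh-CLGN. It was 3.37-fold lower and ranked 32. PPP1R15A, known as GADD34, brings a phosphatase to eIF2 and so ends the signal that raises ATF4 translation. It had 53.8, 53.4 and 47.0 FPKM in sh-NC and 16.8, 15.8 and 17.3 FPKM in sh-CLGN, 3.09-fold lower. TRIB3, a pseudokinase that binds ATF4 and dampens its activity, had 123, 131 and 108 FPKM in sh-NC and 39.5, 39.8 and 41.3 FPKM in sh-CLGN, 3.01-fold lower. No sh-CLGN library of these 5 genes reached the lowest sh-NC library, and their limma adjusted p ranged from 1.2e-06 to 2.74e-06.

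NUPR1, a small nuclear protein induced by stress, was the exception in this group. Its level was 0.695, 0.628 and 0.638 FPKM in sh-NC and 3.20, 3.15 and 3.10 FPKM in sh-CLGN, 4.82-fold higher (log2 fold change 1.33 ± 0.07 SE, limma adjusted p = 5.62e-06), where 3.09% of all tested genes were called with a rise past 1. NUPR1 passed the filter of 1 FPKM in 3 libraries only through sh-CLGN, so that any gene entering this way had to be higher there, and its rise adds nothing to the counts above. The fold in reads rests on 52 reads in the lowest library and 308 in the highest.

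**Figure D2:**
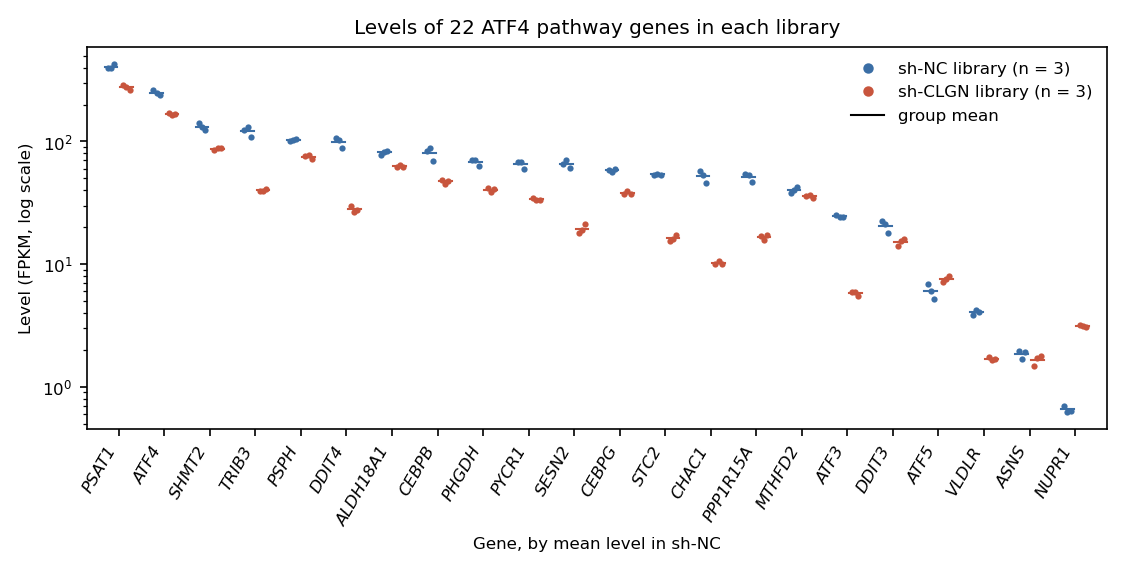
Level in FPKM (y axis, log scale) of the 22 ATF4 pathway genes (x axis, by mean level in sh-NC), with 1 point per library, 3 per group, and a line at each group mean. The sh-CLGN points lie below the sh-NC points in 19 genes, above them in ATF5 and NUPR1, and overlap with them in ASNS.

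The enzymes of amino acid and folate metabolism were lower in 7 of 8 cases, by smaller amounts than the genes above. Their median log2 fold change was -0.50, against -1.64 for the group with CHAC1 and DDIT4, and none of the 8 fell past a log2 fold change of -1. The difference between these groups of genes was not tested. Serine is made by PHGDH, PSAT1 and PSPH in that order. PHGDH had 71.3, 70.7 and 62.8 FPKM in sh-NC and 41.5, 38.6 and 41.2 FPKM in sh-CLGN. PSAT1, the most abundant of the 39 members, had 400, 397 and 425 FPKM in sh-NC and 289, 280 and 264 FPKM in sh-CLGN. PSPH had 100.2, 102 and 105 FPKM in sh-NC and 76.0, 76.9 and 72.6 FPKM in sh-CLGN. The serine enzymes thus stood at 59.2%, 68.1% and 73.4% of control, with no overlap in any of them.

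SHMT2 and MTHFD2 carry one-carbon units from serine in the mitochondrion. SHMT2 had 141, 130 and 124 FPKM in sh-NC and 84.5, 88.5 and 88.3 FPKM in sh-CLGN, 66.2% of control. MTHFD2 had 38.1, 40.3 and 42.7 FPKM in sh-NC and 36.1, 36.4 and 34.5 FPKM in sh-CLGN. This was the smallest called change of the enzymes (log2 fold change -0.17 ± 0.06 SE, limma adjusted p = 0.0244), and its direction turned with quantile normalization and read totals (0.11 and 0.02 on the log2 scale). With TPM the call of MTHFD2 was lost (log2 fold change -0.05, limma adjusted p = 0.564). Its call was also lost without sh-NC replicate 2, sh-CLGN replicate 1, sh-CLGN replicate 2 or sh-CLGN replicate 3, where the limma adjusted p was 0.0583, 0.0570, 0.0529 and 0.0822. MTHFD2 shares 33.2% of its exonic bases with other genes.

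ALDH18A1 and PYCR1 make proline. PYCR1 had 67.7, 68.4 and 59.9 FPKM in sh-NC and 34.4, 33.4 and 33.3 FPKM in sh-CLGN, 51.6% of control and the largest fall of the enzymes (log2 fold change -0.93 ± 0.06 SE, limma adjusted p = 9.99e-06). ALDH18A1 had 77.9, 82.3 and 84.1 FPKM in sh-NC and 62.3, 64.3 and 62.4 FPKM in sh-CLGN, 77.4% of control, with its call lost under quantile normalization (log2 fold change -0.07). PYCR1 shares 29.7% of its exonic bases with other genes.

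ASNS, asparagine synthetase, is a classical ATF4 target and was the only enzyme of the 8 without a call. It had 1.96, 1.69 and 1.91 FPKM in sh-NC and 1.47, 1.71 and 1.78 FPKM in sh-CLGN. The groups overlapped (log2 fold change -0.11 ± 0.09 SE, limma adjusted p = 0.301), and the value rests on 110 to 132 reads per library. With quantile normalization ASNS was called lower (log2 fold change -0.23, limma adjusted p = 0.0409). The ASNS level is uncertain, because 44.6% of its exonic bases are shared on the same strand with AC079781.5 and a pseudogene of it, ASNSP1, was listed at higher levels than ASNS. AC079781.5 had 6 to 8 reads in sh-NC and 10 to 14 reads in sh-CLGN. ASNSP1 had a mean of 9.12 ± 0.301 FPKM in sh-NC and 6.42 ± 0.376 FPKM in sh-CLGN (SD, n = 3 each), a fall of 0.45 on the log2 scale. How reads were divided among these genes was not tested. AC079781.5 and ASNSP1 were named after their values were seen.

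VLDLR, a lipoprotein receptor, and STC2, a secreted glycoprotein hormone, were lower as well. VLDLR had 3.83, 4.22 and 4.10 FPKM in sh-NC and 1.74, 1.65 and 1.67 FPKM in sh-CLGN, 2.40-fold lower. STC2 had 53.8, 54.4 and 53.3 FPKM in sh-NC and 15.3, 16.0 and 17.3 FPKM in sh-CLGN, 3.32-fold lower (log2 fold change -1.67 ± 0.05 SE, limma adjusted p = 1e-06). STC2 ranked 38 from the largest fall. With CHAC1, ATF3, DDIT4, SESN2, PPP1R15A and TRIB3, it made up the 7 members among the 100 largest falls of the 13074 genes.

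sh-NC replicate 3 was the lowest of its group in 13 of the 22 ATF4 pathway genes, beside 39.4% of all tested genes. Without it, the ATF4 set still had 19 lower genes, with a median log2 fold change of -0.71. Their median GC content was 55.4%, against 49.5% for all tested genes. After removal of the GC trend in each library the set had a median of -0.56 against -0.0042 for all tested genes.

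The synthetases ranged from clear falls over small changes to rises, with log2 fold changes from -1.24 to 0.51. MARS, for methionine, had 85.3, 87.5 and 82.5 FPKM in sh-NC and 35.3, 35.5 and 35.6 FPKM in sh-CLGN. It was 2.40-fold lower (log2 fold change -1.24 ± 0.04 SE, limma adjusted p = 1.2e-06). SARS (chr1:109213918-109238169, plus strand), for serine, had 35.0, 34.1 and 31.2 FPKM in sh-NC and 14.8, 14.3 and 13.9 FPKM in sh-CLGN. It was 2.33-fold lower (log2 fold change -1.16 ± 0.06 SE, limma adjusted p = 3.48e-06). These were the only synthetases that fell past a log2 fold change of -1. MARS shares 13.3% of its exonic bases with other genes.

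AARS, for alanine and the most abundant of the 17, had 291, 291 and 264 FPKM in sh-NC and 155, 153 and 164 FPKM in sh-CLGN, 55.8% of control. GARS, for glycine, had 103, 108 and 109 FPKM in sh-NC and 64.0, 63.1 and 65.1 FPKM in sh-CLGN, 60.1% of control. YARS, for tyrosine, had 41.1, 42.3 and 39.9 FPKM in sh-NC and 26.3, 24.7 and 25.6 FPKM in sh-CLGN, 62.0% of control. In each of them the groups were far apart relative to the spread of the libraries. CARS, for cysteine, had 11.6, 11.8 and 11.4 FPKM in sh-NC and 7.58, 7.45 and 7.57 FPKM in sh-CLGN, 64.9% of control. The limma adjusted p of these 4 enzymes ranged from 8.51e-06 to 3.66e-05.

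IARS, VARS, KARS, TARS, EPRS and QARS charge tRNA with isoleucine, valine, lysine, threonine, glutamate with proline, and glutamine, and had smaller falls. IARS had 69.3, 75.0 and 77.1 FPKM in sh-NC and 53.9, 53.6 and 54.5 FPKM in sh-CLGN, 73.2% of control. KARS, VARS and TARS stood at 76.8%, 76.0% and 80.6% of control, with log2 fold changes of -0.37, -0.38 and -0.30. The calls of KARS, VARS and TARS were lost with quantile normalization, where their log2 fold changes were -0.08, -0.11 and -0.03. EPRS (85.4% of control) and QARS (89.6%) had log2 fold changes of -0.22 and -0.16 as deposited, which turned to 0.05 and 0.13 with quantile normalization, and there QARS was called higher (limma adjusted p = 0.0381). The calls of EPRS and QARS were also lost with TPM and read totals, and that of TARS with read totals. For QARS the direction also turned with read totals and after the GC correction, and its call was lost without sh-CLGN replicate 1 or sh-CLGN replicate 2 (limma adjusted p = 0.0568 and 0.0582).

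Among the synthetases that did not fall, WARS, for tryptophan and known to be induced by interferon-gamma, had the largest rise. WARS had 17, 16.7 and 16.9 FPKM in sh-NC and 23.9, 23.9 and 25.4 FPKM in sh-CLGN, 1.45-fold higher (log2 fold change 0.51 ± 0.05 SE, limma adjusted p = 5.37e-05). RARS, for arginine, had 38.8, 38.5 and 42.7 FPKM in sh-NC and 49.1, 46.3 and 44.1 FPKM in sh-CLGN. NARS, for asparagine, had 54.1, 54.5 and 58.7 FPKM in sh-NC and 61.3, 60.5 and 62.1 FPKM in sh-CLGN. The rises of RARS and NARS were 1.16-fold and 1.10-fold, with the closest libraries of the groups nearly touching. The call of RARS (limma adjusted p = 0.0159) was lost without sh-NC replicate 2 or sh-CLGN replicate 1, at 0.0545 and 0.0644. The call of NARS (limma adjusted p = 0.0381) held without sh-NC replicate 3 and was lost without any one of the other 5 libraries, at 0.0885 to 0.110.

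HARS, for histidine, and LARS, for leucine, had no call. HARS had 7.08, 7.49 and 6.37 FPKM in sh-NC and 7.71, 7.64 and 7.26 FPKM in sh-CLGN. LARS had 18.6, 19.1 and 21.3 FPKM in sh-NC and 18.6, 19.5 and 18.2 FPKM in sh-CLGN. Both genes overlapped between the groups, with log2 fold changes of 0.10 ± 0.07 and -0.06 ± 0.06 SE. HARS was called higher with TPM, quantile normalization, read totals and the GC correction, and LARS changed direction with TPM, quantile normalization and read totals and was called lower after the GC correction (log2 fold change -0.17).

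**Figure D3:**
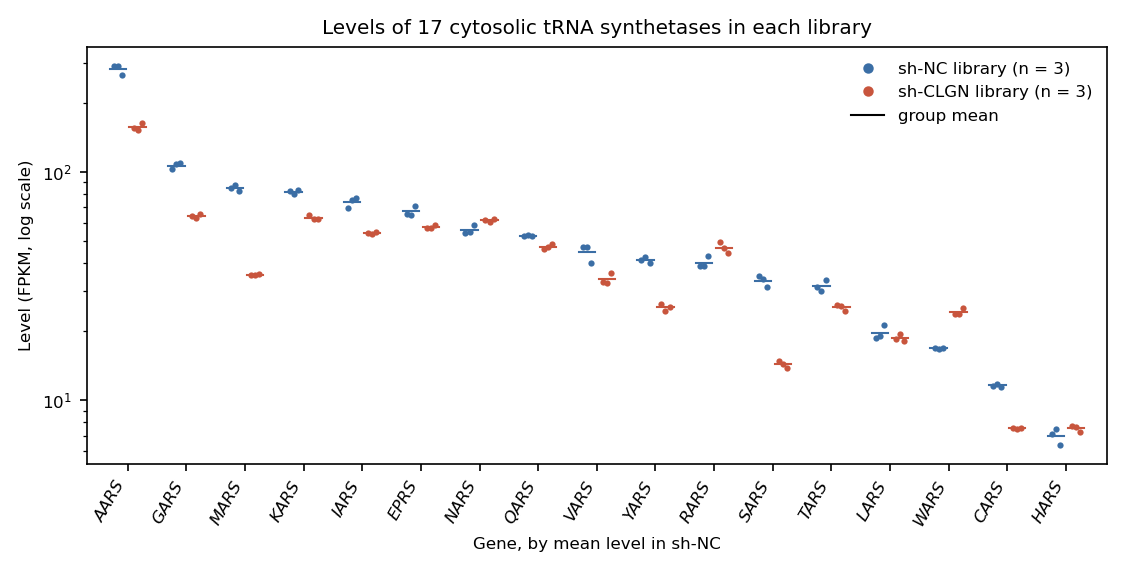
Level in FPKM (y axis, log scale) of the 17 cytosolic tRNA synthetases (x axis, by mean level in sh-NC), with 1 point per library, 3 per group, and a line at each group mean. AARS is the highest at a mean of 282 FPKM in sh-NC and 157 FPKM in sh-CLGN, and NARS, RARS and WARS lie higher in sh-CLGN.

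Several of these enzymes are held together in the multisynthetase complex, which contains EPRS, IARS, KARS, LARS, MARS, QARS and RARS among the 17. Of these 7 members 5 were lower (71.4%) and 1 higher, with a median log2 fold change of -0.22. Of the 10 enzymes outside the complex 7 were lower (70%) and 2 higher, with a median of -0.47. The shares called lower were close to each other, beside 39% of all tested genes lower and 26.7% higher. MARS thus belonged to the complex and fell most, while RARS in the same complex was higher. This grouping was chosen after the values were seen and was not tested.

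The promoters were searched for TGATGNAA, the core of the C/EBP-ATF response element that ATF4 binds with C/EBP partners, on both strands. RefSeq promoter windows on GRCh38.p14, from 250 bases before to 50 bases after each start site, were found for 32 of the 39 members. These members had 47 windows, since some genes have several start sites. A gene was counted when at least 1 of its windows held the motif. NUPR1, PSPH, SHMT2, PYCR1, LARS, VARS and YARS had none in the table. The core was present in 4 of 18 genes of the ATF4 set (22.2%) and in 7 of 14 synthetases (50%), against 2.75% of the 9430 tested genes with a window and 4.46% of all 27305 genes in the table. The stricter TGATGCAA, a subset of the first motif, was present in 2 of the ATF4 set and 6 of the synthetases, against 0.721% of tested genes. CCAAT was present in 11 of 18 and 7 of 14, against 43.5% of tested genes, and CACGTG in 2 of 18 and 1 of 14, against 12.7%.

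The 11 matches are shown as 30 bases each on the strand that reads the motif forward, with the motif core in capitals, since this core is what ATF4 and its C/EBP partners are known to bind. CHAC1 and ATF3 come first, then the other genes of the ATF4 set and the synthetases from the largest fall to the rise of NARS.
CHAC1 (chr15:40953251-40953280, minus strand): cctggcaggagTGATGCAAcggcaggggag
ATF3 (chr1:212565205-212565234, plus strand): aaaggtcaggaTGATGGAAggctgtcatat
CEBPG (chr19:33374060-33374089, plus strand): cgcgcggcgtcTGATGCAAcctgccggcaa
ASNS (chr7:97872458-97872487, minus strand): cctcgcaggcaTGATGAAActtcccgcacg
MARS (chr12:57488053-57488082, minus strand): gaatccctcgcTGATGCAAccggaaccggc
AARS (chr16:70289675-70289704, plus strand): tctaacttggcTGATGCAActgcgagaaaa
GARS (chr7:30594834-30594863, minus strand): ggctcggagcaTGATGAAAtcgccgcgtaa
CARS (chr11:3057407-3057436, plus strand): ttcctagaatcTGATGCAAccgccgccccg
IARS (chr9:92293692-92293721, plus strand): gcgcacggaggTGATGCAAcgcgctgaaaa
TARS (chr5:33440956-33440985, minus strand): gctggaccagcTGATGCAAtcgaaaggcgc
NARS (chr18:57621804-57621833, minus strand): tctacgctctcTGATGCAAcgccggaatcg

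By GENCODE 29 on the same coordinates, 8 of the 11 cores lay in a noncoding part of an exon of the gene, 1 (CEBPG) in an intron, and 2 (ATF3 and AARS) outside the annotated gene. For ATF3 and AARS the stretch of the promoter window that lies outside the gene is given whole, on the strand of the gene and with the core in capitals. In AARS the core reads on the opposite strand and so appears as its reverse complement.
ATF3 (chr1:212565157-212565333, plus strand): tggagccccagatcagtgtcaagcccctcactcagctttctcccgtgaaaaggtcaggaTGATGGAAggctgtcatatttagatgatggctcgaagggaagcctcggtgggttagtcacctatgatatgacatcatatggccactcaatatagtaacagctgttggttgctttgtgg
AARS (chr16:70289544-70289756, minus strand): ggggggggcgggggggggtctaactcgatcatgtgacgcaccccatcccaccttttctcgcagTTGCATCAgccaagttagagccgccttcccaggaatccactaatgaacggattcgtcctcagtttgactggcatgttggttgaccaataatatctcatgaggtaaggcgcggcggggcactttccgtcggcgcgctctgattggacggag

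The synthetases with the core comprised 6 lower and 1 higher, the higher one being NARS, and their median log2 fold change was -0.56. The 7 with a window but without the core comprised 4 lower and 2 higher, with a median of -0.16. Other tested genes had a median of -0.08 with the core (248 genes) and of -0.11 without it (9150 genes). Of these, 40.7% were called lower and 30.6% higher with the core, and 42.1% and 25.8% without it. Of the 4 ATF4 pathway genes with the core 3 were lower and 0 higher, with a median of -1.26. The 14 with a window but without the core comprised 13 lower and 1 higher, with a median of -0.75. None of these differences was tested. In the ATF4 set the core was also absent from windows of genes that fell strongly, namely DDIT4, TRIB3, SESN2, PPP1R15A and STC2, and it was present in ASNS, which had no call. In ATF3, CEBPG, ASNS, CARS, GARS and TARS the core lay in only 1 of the 2 windows of the gene. These are counts of letters in windows near start sites, and binding was not measured.

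**Figure D4:**
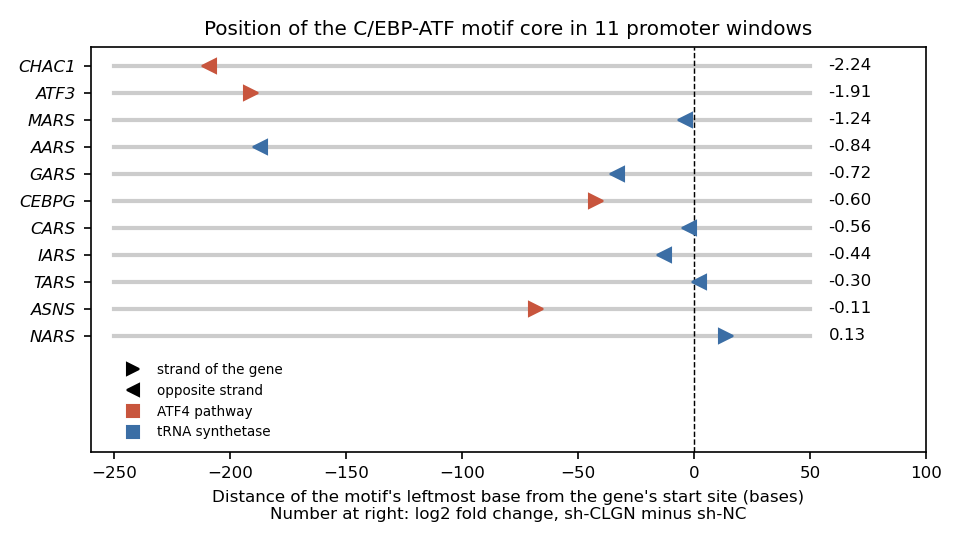
Distance in bases of the motif core's leftmost base from the start site (x axis) in the promoter windows of 11 members, ordered by log2 fold change, which is written at right. Red marks the ATF4 pathway and blue the tRNA synthetases, and arrowheads give the strand. In MARS, CARS, IARS, TARS and NARS the core lies within 20 bases of the start site, whereas in CHAC1, ATF3 and AARS it lies 187 to 209 bases before it.

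Other genes of the same pathway and of neighbouring ones are described next, and their counts are to be read against the 39% lower and 26.7% higher of all tested genes. Further ATF4 targets, mainly amino acid transporters and secreted or metabolic proteins, had 20 lower and 5 higher of 26 tested genes with a median log2 fold change of -0.69. FGF21, the remaining gene of this list, did not pass the filter, with 7 to 16 reads in sh-NC and 2 to 6 reads in sh-CLGN. The largest fall was that of SLC7A5, the light chain of the leucine transporter (151, 150 and 132 FPKM in sh-NC, 43.0, 44.2 and 47.4 FPKM in sh-CLGN, log2 fold change -1.66). The largest rise was that of KLHL24, an adaptor of a ubiquitin ligase (1.64, 1.58 and 1.99 FPKM in sh-NC, 4.70, 5.09 and 4.88 FPKM in sh-CLGN, log2 fold change 1.11). SLC3A2, the heavy chain that pairs with SLC7A5 and was named after its values were seen, was higher (120, 124 and 107 FPKM in sh-NC, 213, 213 and 217 FPKM in sh-CLGN, log2 fold change 0.87).

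The mitochondrial tRNA synthetases, which carry out the same reaction on mitochondrial tRNAs, had 12 lower and 1 higher of 17 genes. Their median log2 fold change of -0.37 equalled that of the cytosolic enzymes to this precision. LARS2 had the largest fall (-0.75) and TARS2 the one called rise (0.20), while IARS2 (-0.07), RARS2 (0.03), SARS2 (0.03) and WARS2 (0.12) had no call. The remaining cytosolic subunits and scaffold proteins had 4 lower and 2 higher of 6, from FARSA, a subunit of the phenylalanine enzyme (-0.46), to AIMP1, a scaffold of the multisynthetase complex (0.76). AIMP1 had 7.21, 7.14 and 8.04 FPKM in sh-NC and 13.9, 13.7 and 12.5 FPKM in sh-CLGN.

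Upstream of ATF4, the eIF2 kinases, eIF2 subunits and the exchange factor eIF2B had 5 lower and 4 higher of 15 genes (33.3% and 26.7%), with a median of 0.01, near the shares of all tested genes. The eIF2B subunit EIF2B3 fell most (-0.90) and IMPACT, an inhibitor of the amino acid sensing kinase, rose most (0.50). Targets of ATF6 and XBP1, which serve the other arms of the unfolded protein response, had 9 lower and 1 higher of 14 genes with a median of -0.27. The disulfide isomerase PDIA4 fell most (-1.26), and the chaperone DNAJB9 rose most (1.52). Other ATF, CREB and C/EBP family genes had 6 lower and 7 higher of 19, from ATF6B (-1.69) to BATF (1.86). BATF, BATF3 and CREB3L1, 3 of the 7 higher genes, passed the filter only through sh-CLGN. Genes of mTORC1 and the other sestrins had 3 lower and 5 higher of 10, from RPTOR, the scaffold subunit of mTORC1 (-0.44), to SESN3 (1.27). SESN3 stood at 2.66, 2.47 and 3.14 FPKM in sh-NC and 7.52, 8.90 and 7.83 FPKM in sh-CLGN, and so moved opposite to its relative SESN2.

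**Figure D5:**
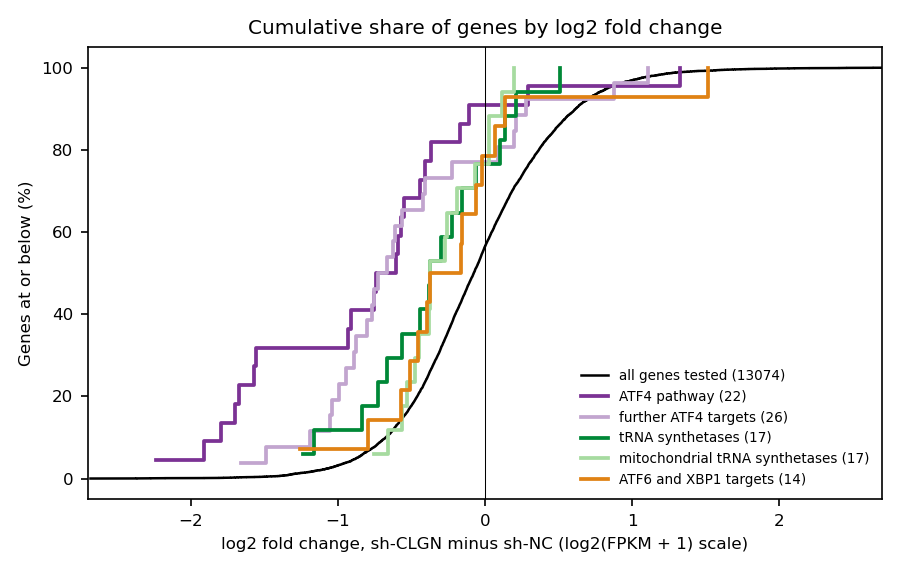
Cumulative percentage of genes (y axis) at or below each log2 fold change (x axis, sh-CLGN minus sh-NC on the log2(FPKM + 1) scale) for all tested genes in black and 5 lists in colour, with the number of genes in brackets. The x axis is limited, and the few genes outside it are not drawn. The ATF4 pathway and further ATF4 targets, with medians of -0.67 and -0.69, lie left of both synthetase lists at -0.37. All 5 lists, with the ATF6 and XBP1 targets at -0.27, lie left of the black line at its middle.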

How the data were processed

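RNA of Hep-G2 cells was sequenced as 6 libraries, 3 sh-NC and 3 sh-CLGN, and the study describes the data as mRNA sequencing. The authors deposited FPKM per gene and library, made with HISAT2 2.0.5 and featureCounts on GRCh38 according to the submitters' processing notes. All 58735 gene positions in the deposited table equalled GENCODE 29. FPKM times gene length gave whole reads for 100% of values in each library, within 0.01 of a read, and a single read over 1 kb made 0.0589 to 0.0717 FPKM. Arithmetic on these reads covers counting error only.

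Genes that reached 1 FPKM in 3 or more libraries were fitted with limma 3.58.1 in R 4.3.3 (eBayes with an intensity trend) on log2(FPKM + 1), a scale that understates the change of low genes. P-values were two-sided and adjusted by Benjamini-Hochberg over all 13074 genes tested. All 39 members passed this filter, NUPR1 only through sh-CLGN. A second rule asked in addition for a log2 fold change of 1 or more in size. The fit was tested on simulated data. The members and lists were chosen with earlier results of these data known. All members are named, with CLGN and, of each other list, the largest called rise and fall. With their values known, the text also names SLC3A2, FGF21, BATF3, CREB3L1, ASNSP1, AC079781.5, single cell type markers and the mitochondrial synthetases without a call. Promoter sequences were taken from RefSeq. The 16 alternatives covered the pseudocount (0.1), 2 filters, TPM, quantile and read-total scaling, limma without trend, voom on recovered reads, a GC correction, a replicate block and leaving out each library. The study's methods state no test for the sequencing.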

Additional observations from a re-analysis of the deposited data

How the results depend on the processing

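Of the 39 members 25 kept their direction and their side of the threshold under all 16 alternatives, 17 of the 22 ATF4 pathway genes and 8 of the 17 synthetases. The pseudocount of 0.1 and voom on recovered reads changed no member's call. Directions turned for ASNS with read totals (0.017), MTHFD2 with quantile normalization (0.11) and read totals (0.018), EPRS with quantile normalization (0.052), LARS with TPM (0.059), quantile normalization (0.16) and read totals (0.12), and QARS with quantile normalization (0.13), read totals (0.036) and the GC correction (0.056), all log2 fold changes. The median of the ATF4 pathway was -0.55 with TPM, -0.39 with quantile normalization, -0.48 with read totals and -0.56 with the GC correction, and -0.71 to -0.65 when single libraries were left out. The median of the synthetases was -0.25, -0.079, -0.18 and -0.33 under the same 4 settings, and -0.37 to -0.35 when single libraries were left out.

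The shares of all tested genes called lower and higher were 32.5% and 30.2% with quantile normalization, and 26.2% and 37.9% with read totals. They were 30% and 32.8% with TPM, 34.2% and 32.7% with the GC correction, and 38.6% and 26.8% with no trend. With no filter they were 14.1% and 13.6%, and with a mean of at least 0.1 FPKM 22.5% and 20.7%. Synthetases comprised 7 lower and 5 higher with quantile normalization, and 0 of them passed both thresholds downward there (2 in the deposited scale, 1 with read totals). Higher synthetases numbered 1 to 3 and higher ATF4 pathway genes 1 to 2 when single libraries were left out, and the latter numbered 1 with no filter and with a mean of at least 0.1 FPKM. Of the mitochondrial synthetases 0 were higher with no filter, with a mean of at least 0.1 FPKM and with no trend, 2 with TPM, 3 with quantile normalization, 3 with read totals and 0 to 1 when single libraries were left out. Of the other subunits 1 was lower with quantile normalization and 2 with read totals, and 1 was higher with the GC correction. The eIF2 genes had 8 higher with quantile normalization and 8 with read totals, and the further ATF4 targets had 3 to 6 higher when single libraries were left out. The ATF6 and XBP1 targets had 5 lower and 5 higher with quantile normalization, 2 higher with TPM, 4 with read totals, 3 with the GC correction and 1 to 2 when single libraries were left out. The stricter promoter motif left 2 genes in the ATF4 pathway. The cause of these changes was not tested.

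The labels do not say whether libraries that share a number were prepared together. Each library was taken as its deviations from the mean of its group, gene by gene. In these deviations same-numbered libraries of the groups had correlations of -0.15 to -0.018, and 0 of 6 libraries correlated best with their own number. Deviations within a group sum to 0 for each gene, so these correlations cannot decide whether the libraries were pairs. With the replicate block 30 members were lower and 3 higher, with 1 higher ATF4 pathway gene and 0 higher mitochondrial synthetases, and the calls of ATF5, MTHFD2 and NARS were lost.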
